A study of Mus musculus with 6 samples.

Results

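The genes described here are the cytosolic aminoacyl-tRNA synthetases and a group of stress and amino acid metabolism genes linked to the transcription factor Atf4. They were chosen by name, with earlier results of these data known, as 33 of the 13024 genes in a table of RNA-Seq counts from E14.5 mouse lenses. They comprise 20 synthetase genes and 13 Atf4 stress genes. All 33 were present in the table and passed the filter on low counts, as did 12879 genes in total. Gata3, a zinc finger transcription factor of lens fibre cell differentiation, was inactivated in the lens, and the study asked how the lens transcriptome differs without it. The comparison is between 3 libraries labelled CKO (Gata3 f/f with the Pax6-Cre transgene) and 3 control libraries, and 10 lenses of 5 embryos were pooled for each. The labels call the control pools wild type, whereas the study's text gives their genotype once as Gata3 f/f and once as Gata3 f/wt without Cre, so they are named control here. The embryos of both groups had a mixed C57BL/6 and FVB background. Pax6-Cre is active in precursors of both lens and cornea, and since Cre was carried by the CKO embryos only, loss of Gata3 and presence of Cre cannot be told apart.

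Aminoacyl-tRNA synthetases join each amino acid to its tRNA and so supply the ribosome. Several of them are held in a large multisynthetase complex by scaffold proteins, while the others act as free enzymes. When amino acids run short or unfolded proteins accumulate, kinases of the integrated stress response phosphorylate eIF2, bulk translation falls, and translation of Atf4 mRNA is favoured. Atf4 protein, paired with C/EBP factors, then binds C/EBP-Atf response elements and activates genes for amino acid import, amino acid synthesis and many of the synthetases. Lens fibre cells are known for very high synthesis of crystallins, the soluble proteins that make the lens transparent.

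Each library held between 15157230 and 18811104 counts, of which the 33 genes took 0.359% to 0.38%. Crystallins, the defining transcripts of lens, took between 5.47% and 16.5%, with the top share in control replicate 2. The 9 fibre cell markers were all highest in that pool, where they summed to 22337 CPM against 7058 to 10705 CPM elsewhere, and the 7 retina markers were all lowest there, at 586 against 864 to 1258 CPM. Blood markers (1267 against 279 to 531 CPM), macrophage markers (142 against 66.4 to 107 CPM) and lens epithelium markers (1301 against 989.6 to 1141 CPM) were also highest in control replicate 2, and proliferation markers were lowest (1655 against 1911 to 2279.9 CPM). Mesenchyme markers were summed to 2178 CPM in control replicate 1 and 3829 CPM in CKO replicate 2 against 292 to 629 CPM in the other 4 pools. CPM is a gene's count divided by the TMM-adjusted size of its library. The Gata3 count was 202, 386 and 156 in control and 910, 1064 and 894 in the libraries labelled CKO (log2 fold change 1.72 with a standard error of 0.40, and adjusted p = 0.65 in edgeR and 0.00163 in DESeq2). All 3 counts labelled CKO were above all 3 control counts. With one count per gene the excised exon 4 cannot be seen, so the count does not check the labels. The study reported excision of this exon in the mutant lenses from RNA-Seq, and lower Gata3 by qPCR with primers that included it. Neither can be read from these counts, and every direction given below refers to the libraries labelled CKO.

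The promoters of some of these genes hold the core of the C/EBP-Atf response element, TGATGNAA on either strand, and 1 match is shown for each of these genes because they divide the genes by a property independent of the counts. RefSeq promoter sequences (GRCm38.p6, 250 bases before to 50 after the start site) were matched for 26 of the 33 genes, with Mars matched as Mars1. Cars, Hars, Lars, Nars, Rars, Vars and Wars were not matched. The motif was found in 8 of the 26 genes (30.8%), whereas it was found in 2.53% of the 10084 genes of the count table that had a promoter sequence and in 3.97% of all 32851 promoters. It was present in 5 of the 13 synthetase genes and 3 of the 13 Atf4 stress genes. Each sequence is a window of 30 bases read 5′ to 3′ on the strand that carries the motif, with the motif in capitals.
Aars (chr8:111033840-111033869, reverse strand): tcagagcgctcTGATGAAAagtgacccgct
Gars (chr6:55037960-55037989, reverse strand): cgcccggtgcaTGATGAAAtagcgcagcca
Iars (chr13:49682126-49682155, reverse strand): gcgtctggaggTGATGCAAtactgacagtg
Tars (chr15:11399655-11399684, forward strand): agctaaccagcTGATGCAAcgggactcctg
Yars (chr4:129189895-129189924, forward strand): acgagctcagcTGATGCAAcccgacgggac
Trib3 (chr2:152344028-152344057, forward strand): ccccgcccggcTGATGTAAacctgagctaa
Asns (chr6:7693214-7693243, reverse strand): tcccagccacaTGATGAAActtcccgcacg
Chac1 (chr2:119351038-119351067, reverse strand): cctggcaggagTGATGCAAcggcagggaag
Most of these sites lay close to the start of transcription, and the one farthest from it, in Chac1, began 193 bases before the start. A match is a description of the sequence and does not show binding by Atf4.

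None of the 33 genes passed an adjusted p of 0.05 in edgeR's quasi-likelihood test, which called 0 of the 12879 genes tested (0%). Their fold changes were small, and most were below 0 in the libraries labelled CKO. The median log2 fold change was -0.11 over the 33 genes, against 0.0019 over all genes tested, and 25 of the 33 were below 0 (75.8%), against 49.4% of all genes. At an unadjusted p under 0.05, 4 genes were lower (12.1%) and 0 were higher, where 2.24% of all genes were lower and 1.3% were higher by this rule. Of all genes, 3.55% passed it in either direction. The 4 genes were Atf4, Iars, Gars and Mars. DESeq2's Wald test, which called 85 of 12866 genes (0.661%) after adjustment, called 0 of the 33, and its unadjusted p was under 0.05 for the same 4 genes and for Cars, as it was for 3.94% of all genes.

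In 6 genes every control pool was above every CKO pool (18.2%), where 4.69% of all genes were separated in this direction. These were Aars, Gars, Iars, Mars, Atf4 and Asns. Ddit4 was the 1 gene with every CKO pool above every control pool, a separation found in 3.67% of all genes. Separation in either direction was found in 8.36% of all genes. The cell type markers also had fold changes away from 0. The median log2 fold change was -1.55 for fibre markers (9 of 9 below 0), -1.19 for crystallins (15 of 16), -0.35 for lens epithelium (4 of 4), -0.44 for macrophages (7 of 7), -0.98 for blood (3 of 3 tested) and -0.36 for vessels (5 of 6). It was 0.17 for retina (7 of 7 above 0), 0.64 for mesenchyme (6 of 7), 0.061 for pigment cells (4 of 5), 0.41 for surface ectoderm (3 of 4) and 0.055 for proliferation (4 of 6). Every control pool was above every CKO pool in 10 of the 16 crystallins (62.5%) and 5 of the 9 fibre markers (55.6%), against 4.69% of all genes. No gene tested in the other marker lists was separated in either direction. The summed level of every one of these lists still overlapped between the groups, and the part of these markers in the values of the 33 genes was not tested. In bulk RNA, fewer cells of a type and less RNA per cell cannot be told apart.

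The level in control replicate 2 was the highest of the 6 pools for 23 of the 33 genes (69.7%), whereas this pool was the highest for 31.6% of all genes. This was also the pool with the highest summed levels of crystallin, fibre, lens epithelium, blood and macrophage markers and the lowest of retina and proliferation markers, and the part of those differences in the results was not tested. Control replicate 2 also had the lowest TMM factor, 0.869 against 0.998 to 1.05 in the other pools, which raises its CPM values. Before this scaling the 33 genes took 0.378% of its counts, against 0.359% to 0.38% in the other pools. The part of the scaling in its high levels was not tested. Each gene was also set against its own mean of 6 pools on the log2(CPM + 0.5) scale. The mean deviation of the synthetases was 0.21 in control replicate 2. Control replicates 1 and 3 had values of 0.0030 and -0.032, followed by -0.031, -0.12 and -0.036 in CKO replicates 1, 2 and 3. For the Atf4 stress genes it was 0.30 in control replicate 2 and between -0.11 and -0.030 in the other 5 pools. Control replicates 1 and 3 thus lay nearer to the CKO pools than to control replicate 2 in both groups of genes.

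**Figure D1:**
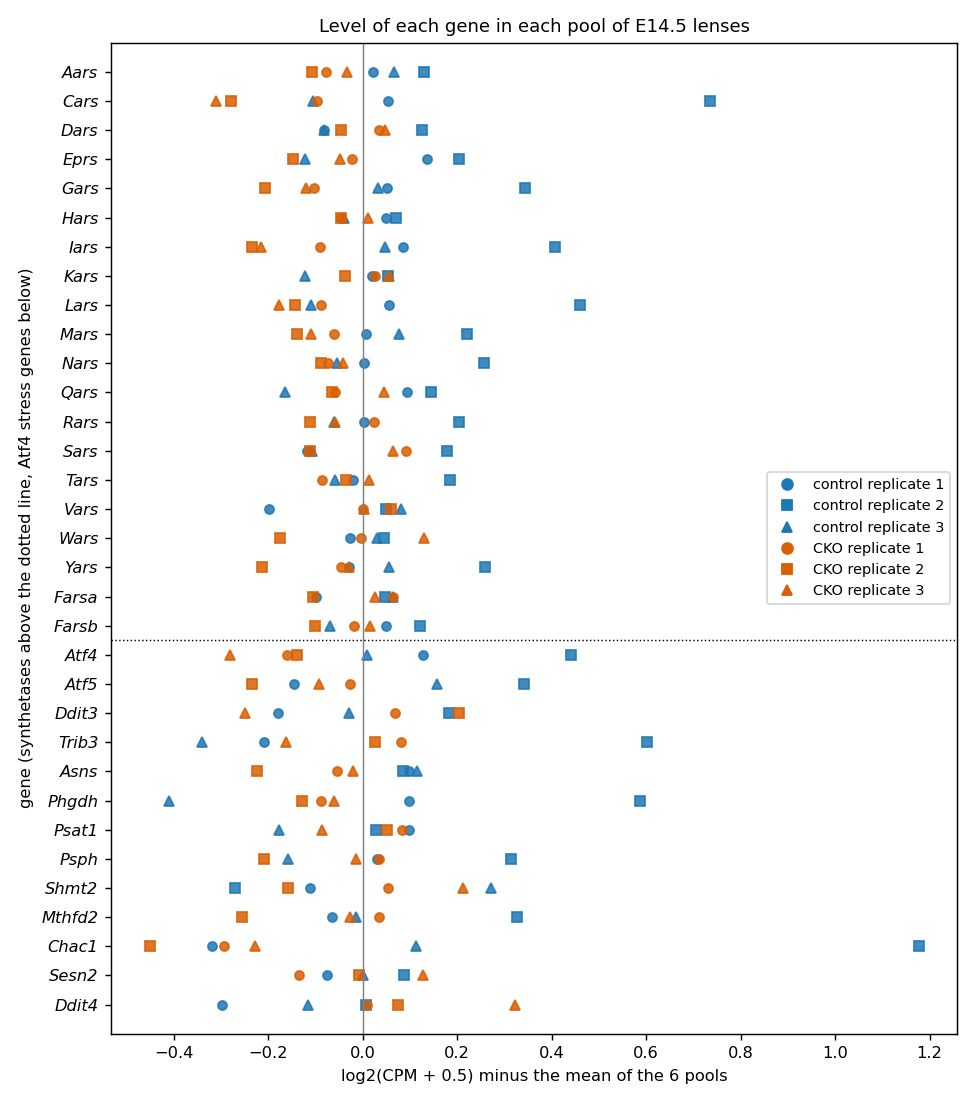
Each row is a gene and each point a pool, plotted as log2(CPM + 0.5) minus the mean of the 6 pools (control in blue, CKO in orange; circle, square and triangle for replicates 1, 2 and 3). The blue square, control replicate 2, is the rightmost point in 23 of the 33 rows, and all 3 orange points lie left of all blue points for Aars, Gars, Iars, Mars, Atf4 and Asns.

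Of the 20 synthetase genes, 16 had a lower and 4 a higher mean in the libraries labelled CKO. Their median log2 fold change was -0.088, and values ran from -0.50 for Cars to 0.04 for Vars. An unadjusted p under 0.05 was reached by 3 of them (15%), Iars, Gars and Mars, all lower, where 2.24% of all genes were lower. The groups did not overlap in 4 of the 20 genes (20%), the same 3 and Aars, against 4.69% of all genes separated in this direction. The fitted spread between pools of a group was small for these genes. Their median biological coefficient of variation, as moderated by the edgeR fit, was 0.106, against 0.143 for all genes. All genes were not matched to the synthetases in level.

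Iars charges isoleucine and is part of the multisynthetase complex (mm10 chr13:49682100-49734267, forward strand). It had 273, 341 and 266 CPM in control replicates 1, 2 and 3 and 242, 219 and 222 CPM in CKO replicates 1, 2 and 3. All control pools lay above all CKO pools, and control replicate 2 stood highest. The means were 293 ± 41.6 CPM in control and 227 ± 12.6 CPM in CKO (SD, n = 3). This gave a log2 fold change of -0.37 with a 95% interval of -0.64 to -0.10 and a standard error of 0.11 (unadjusted p = 0.0145, adjusted p = 0.9998 in edgeR).

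Gars charges glycine as a free enzyme (chr6:55038007-55079500, forward strand). It had 215, 263 and 212 CPM in control and 193, 179 and 191 CPM in CKO, so the groups were separated with control replicate 2 again highest. The means were 230 ± 28.8 and 188 ± 7.29 CPM (SD, n = 3). Its log2 fold change was -0.29, with a 95% interval of -0.53 to -0.052 and a standard error of 0.10 (unadjusted p = 0.0241, adjusted p = 0.9998 in edgeR).

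Mars, the methionine enzyme of the complex (chr10:127296221-127311786, reverse strand), had 113, 132 and 119 CPM in control and 108, 102 and 104 CPM in CKO. The 2 groups were separated by a narrow gap. The means were 121 ± 9.33 and 105 ± 2.90 CPM (SD, n = 3). Its fitted log2 fold change was -0.21, with a 95% interval of -0.39 to -0.024 and a standard error of 0.078 (unadjusted p = 0.0322, adjusted p = 0.9998 in edgeR). The 3′ ends of Mars and Ddit3 share 68 exon bases on opposite strands, and the strand option of the counting is not given in the sources used here.

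Aars, which charges alanine, had 180.3, 194 and 186 CPM in control and 168, 165 and 173 CPM in CKO. The groups did not overlap. The log2 fold change was -0.15, with a standard error of 0.065 and an unadjusted p of 0.0599 in edgeR. Aars shares 1326 exon bases with Exosc6 on the same strand, so the count of either gene may be uncertain.

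The most negative value among the synthetases was that of Cars, the cysteine enzyme, at -0.50 (standard error 0.22, 95% interval -1.03 to 0.028, unadjusted p = 0.0598). Its level was 109, 176 and 97.9 CPM in control and 98.5, 86.8 and 84.9 CPM in CKO. Control replicate 2 alone stood apart, and control replicate 3 overlapped the CKO pools. Lars, the leucine enzyme, showed the same arrangement, with 191, 253 and 170.0 CPM in control and 173, 166 and 162 CPM in CKO (log2 fold change -0.29, standard error 0.15, unadjusted p = 0.0868).

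The remaining 14 synthetase genes had log2 fold changes between -0.19 for Yars, the tyrosine enzyme, and 0.04 for Vars, the valine enzyme, with overlapping groups in each. The other values above 0 belonged to Dars (aspartate), Kars (lysine) and Sars (serine), at 0.02, 0.03 and 0.03. The 95% interval of Kars ran from -0.15 to 0.20 and that of Dars from -0.17 to 0.21. Farsa and Farsb, the subunits of the phenylalanine enzyme, had values of -0.010 and -0.069. Eprs, the dual glutamate and proline enzyme, had the highest CPM of the synthetases, at 363 ± 42.0 in control and 327 ± 14.9 in CKO (SD, n = 3), with a log2 fold change of -0.15 (standard error 0.10).

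The synthetases known as Atf4 targets had lower values than the rest of the family. That difference was not tested, and the lists were chosen with earlier results of these data known, so the split is a description only. Over the 11 targets (Aars, Cars, Eprs, Gars, Iars, Mars, Nars, Sars, Tars, Wars and Yars) the median log2 fold change was -0.15 and 10 were below 0. All 3 synthetases with an unadjusted p under 0.05 and all 4 with separated groups (36.4%) were among them. By these rules 2.24% of all genes were lower and 4.69% were separated with lower values in CKO. Over the other 9 synthetase genes the median was -0.055, 6 were below 0, and 0 had separated groups. A split by the multisynthetase complex gave closer values, with a median of -0.13 and 6 of 8 below 0 for the complex enzymes and -0.071 and 10 of 12 below 0 for the free ones. Control replicate 2 was the highest pool for 10 of the 11 Atf4 targets and 6 of the other 9. Without it the medians were -0.097 for the targets, with 9 of 11 below 0, and 0.015 for the other 9, with 4 below 0. They were -0.041 for the complex enzymes and -0.018 for the free ones.

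Among the 13 Atf4 stress genes, 9 had a lower and 4 a higher mean in the libraries labelled CKO. The median log2 fold change was -0.14, and values ran from -0.94 for Chac1 to 0.28 for Ddit4. Only Atf4 itself had an unadjusted p under 0.05, where 3.55% of all genes passed in either direction. The groups were separated in 3, with Atf4 and Asns lower and Ddit4 higher, where 8.36% of all genes were separated in either direction.

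Atf4 encodes the basic leucine zipper factor at the centre of the response (chr15:80255184-80257541, forward strand). Its level was 161, 199.7 and 148 CPM in control and 131, 133 and 121 CPM in CKO, so that every control pool was above every CKO pool. The means were 169 ± 27.0 and 129 ± 6.73 CPM (SD, n = 3). The log2 fold change of -0.40, with a 95% interval of -0.68 to -0.11 and a standard error of 0.12, had the smallest p of the 33 genes (unadjusted p = 0.0133, adjusted p = 0.989 in edgeR). Since Atf4 is controlled mainly through translation, its mRNA level is not a measure of its protein.

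The other 3 regulators had overlapping groups. Atf5, a related factor also induced by eIF2 phosphorylation, had 37.3 ± 6.30 CPM in control and 31.4 ± 2.29 CPM in CKO (SD, n = 3; log2 fold change -0.25, standard error 0.14). Ddit3, which encodes the pro-apoptotic factor Chop, was low in all pools, between 7.70 and 10.7 CPM, and its log2 fold change was 0.02 (95% interval -0.43 to 0.47). Trib3, a pseudokinase that restrains Atf4, had 22, 40 and 22 counts in control and 28, 34 and 28 in CKO, too few to resolve a small difference (log2 fold change -0.11, 95% interval -1.04 to 0.81).

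The 6 amino acid enzymes had a median log2 fold change of -0.15, with 4 below 0 and 2 above. Asns, asparagine synthetase, had 36.9, 36.6 and 37.4 CPM in control and 33.1, 29.4 and 33.9 CPM in CKO. Its groups were separated without control replicate 2 standing apart. The log2 fold change was -0.20 (standard error 0.087, unadjusted p = 0.0572).

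The values of the serine pathway enzymes differed in sign. Phgdh, its entry enzyme, had 59.7, 84.0 and 41.8 CPM in control and 52.4, 51.0 and 53.4 CPM in CKO. The control pools lay on both sides of the CKO pools, which were close together, and the log2 fold change of -0.24 had an interval from -0.81 to 0.32. Psat1 and Psph, the next enzymes, had values of 0.03 and -0.14. Shmt2 and Mthfd2, which carry serine carbon into mitochondrial one-carbon metabolism, had values of 0.06 and -0.17. Groups overlapped for all of these, and Psph shares 452 exon bases with Cct6a on the opposite strand.

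The 3 stress effectors went in different directions. Chac1, a glutathione-degrading enzyme, had 28, 84 and 46 counts in control and 28, 31 and 37 in CKO. In CPM these were 1.77, 5.92 and 2.57 against 1.82, 1.58 and 1.93, so that control replicate 1 lay among the CKO pools. Its log2 fold change of -0.94 was the most negative of the 33 but had a 95% interval from -2.05 to 0.17 (unadjusted p = 0.0860).

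Ddit4, an inhibitor of the growth kinase complex mTORC1, was the 1 gene of the 33 with all CKO pools above all control pools. It had 38.7, 47.99 and 44.0 CPM in control and 48.04, 50.3 and 59.8 CPM in CKO, and the closest pools of the 2 groups were almost level. The log2 fold change was 0.28 (standard error 0.12, 95% interval -0.014 to 0.56, unadjusted p = 0.0588). Sesn2, a leucine sensor that also restrains mTORC1, had 11.8 ± 0.693 and 11.7 ± 1.11 CPM (SD, n = 3; log2 fold change -0.0055, 95% interval -0.33 to 0.32).

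**Figure D2:**
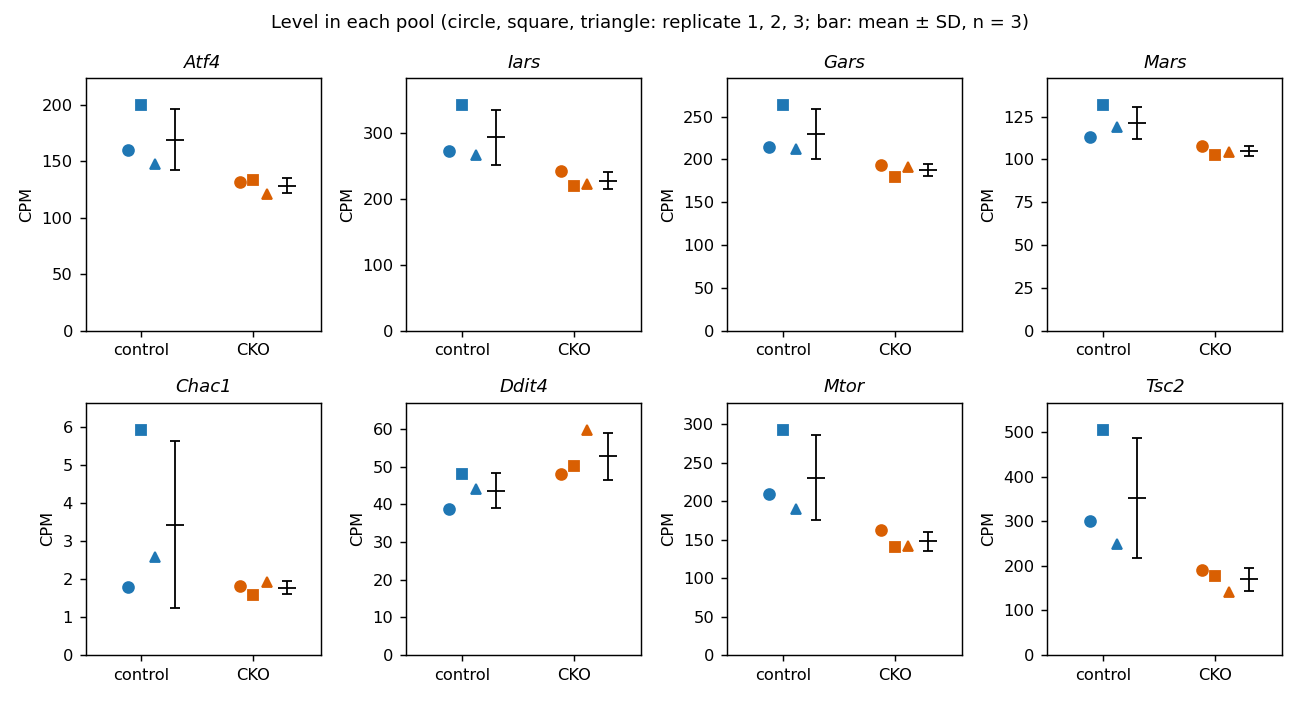
CPM in each pool, with control in blue and CKO in orange, and the mean ± SD of 3 pools beside the points. Atf4, Iars, Gars, Mars, Mtor and Tsc2 have every control pool above every CKO pool and control replicate 2 (square) highest, Chac1 is high in control replicate 2 alone, and Ddit4 has every CKO pool above every control pool.

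Leaving out control replicate 2 brought the medians of both groups of genes close to 0. The median log2 fold change became -0.018 for the synthetases and 0.012 for the Atf4 stress genes, against 0.0019 over all genes in the same fit. Below 0 were then 13 of the 20 synthetases and 6 of the 13 Atf4 stress genes. Atf4, Iars and Gars were still lower, at -0.25, -0.24 and -0.17, with unadjusted p-values of 0.0131, 0.0132 and 0.0253, and 2.47% of all genes were lower at that threshold. Ddit4 was then higher at an unadjusted p of 0.0157 (log2 fold change 0.36), where 3.8% of all genes were higher.

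Among the genes with the most negative values, Cars was -0.19, Lars -0.10 and Chac1 -0.28 without control replicate 2, with unadjusted p-values of 0.0791, 0.218 and 0.405. Asns kept a value of -0.20. The number of genes lower at an unadjusted p under 0.05 also depended on other pools, with 8 without control replicate 3, 1 (Atf4) without CKO replicate 2 and 0 without CKO replicate 3. All genes tested gave 5.98%, 2.05% and 1.15% in those fits. Without the 2 mesenchyme-rich pools, control replicate 1 and CKO replicate 2, 0 of the 33 genes and 0.905% of all genes were lower by this rule, while the fold changes of Atf4, Iars and Gars were -0.45, -0.38 and -0.30 with 2 pools in each group.

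**Figure D3:**
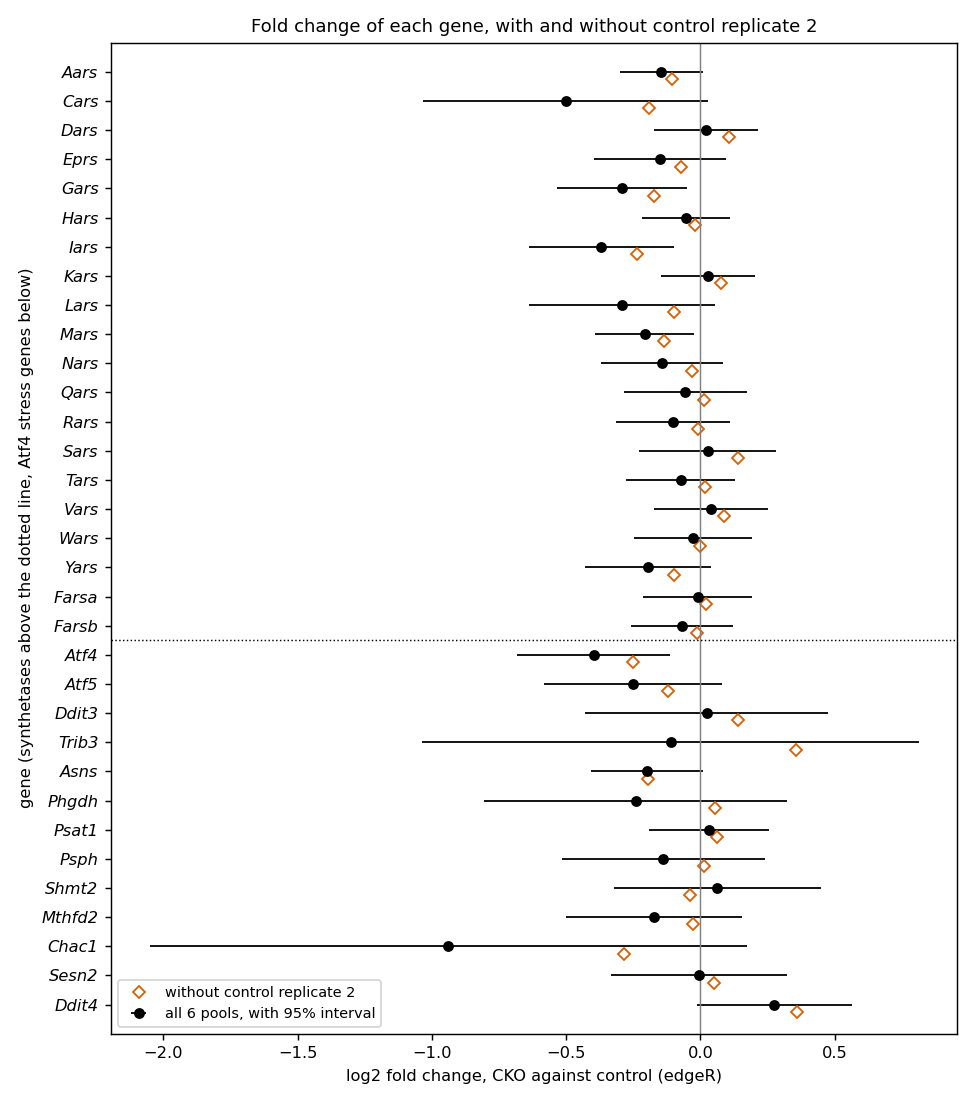
Log2 fold change of CKO against control for each gene from all 6 pools (black, with 95% interval) and without control replicate 2 (open orange diamonds). The black intervals of Atf4, Iars, Gars and Mars lie below 0, and most diamonds lie nearer to 0 than the black points, with Ddit4 at 0.36 and Trib3 at 0.36 as the highest.

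Genes with the response element in the promoter window had lower values than those without it. All 8 genes with the motif were below 0, with a median log2 fold change of -0.20, a range from -0.94 for Chac1 to -0.074 for Tars, and separated groups in 4 (50%), namely Aars, Gars, Iars and Asns. Of the 18 genes with a promoter sequence but no motif, 11 were below 0 and 7 above, the median was -0.033, and 2 (11.1%), Atf4 and Mars, had lower values in every CKO pool. Over all genes tested, 4.69% were separated in this direction, and the classes are small. Control replicate 2 was the highest pool for 7 of the 8 genes with the motif and 11 of the 18 without it. Without that pool the median was -0.14 for the genes with the motif, with Tars and Trib3 now above 0, and 0.018 for those without it, with 7 below and 11 above 0. The difference between these classes was not tested.

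**Figure D4:**
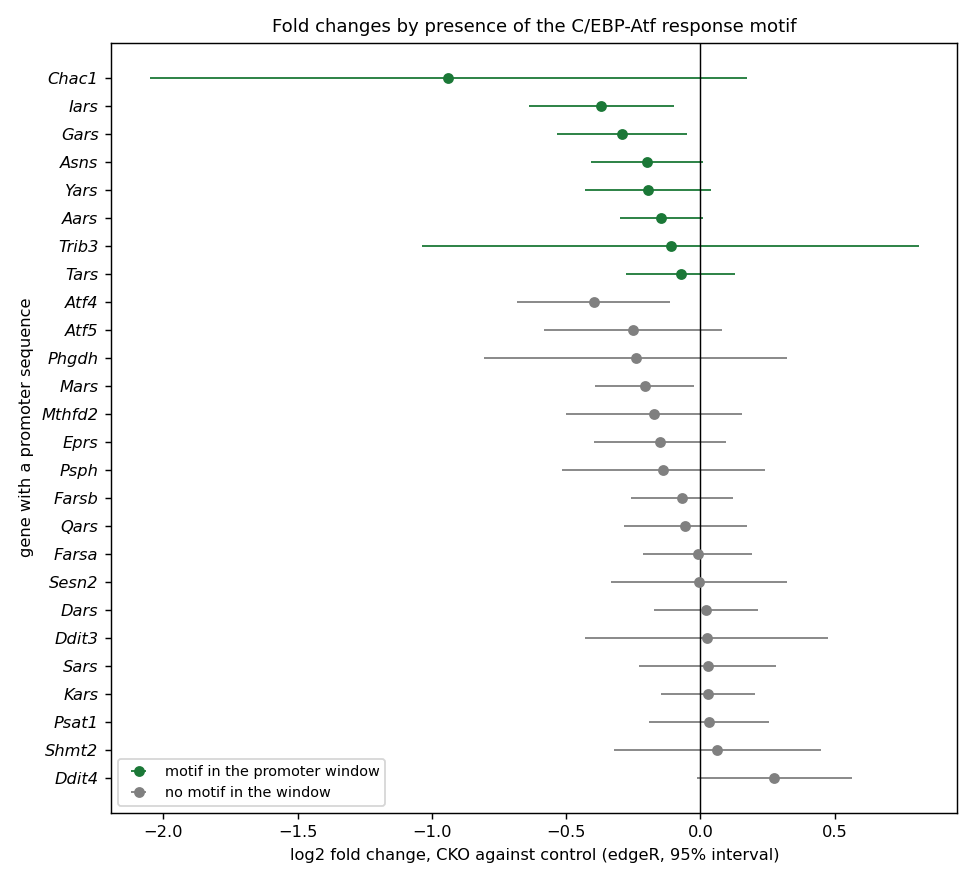
Log2 fold change of CKO against control with its 95% interval for the 26 genes with a promoter sequence, with genes that hold TGATGNAA in green and those without it in grey. All 8 green points are below 0, and the grey points run from -0.40 for Atf4 to 0.28 for Ddit4.

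Levels of different genes were compared per kilobase of the longest RefSeq-paired transcript. On this scale the means of 6 pools ran from 26.4 ± 1.86 CPM per kilobase for Tars to 87.7 ± 12.5 for Gars (SD, n = 6) among the synthetases. Gars was followed by Nars at 76.2 ± 7.29, Kars at 72.4 ± 3.37 and Eprs at 70.3 ± 7.01, and it was above each of these in all 6 pools. Nars and Kars, and Kars and Eprs, changed places between pools, with the first of each pair higher in 4 of 6. Atf4, at 86.4 ± 16.5 CPM per kilobase, was below Gars in 3 of the 6 pools and above it in the other 3. Shmt2 and Psat1 followed among the Atf4 stress genes at 60.2 ± 9.07 and 59.7 ± 4.38, although Shmt2 was above Psat1 in only 2 of the 6 pools.

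At the lower end of this order, Ddit3 was at 10.5 ± 1.41, Psph at 9.19 ± 1.26, Sesn2 at 3.38 ± 0.238, Chac1 at 1.59 ± 1.02 and Trib3 at 0.859 ± 0.282 CPM per kilobase. Asns, at 17.3 ± 1.51, lay below every synthetase. This order rests on one transcript length per gene and would shift where another transcript is the main one.

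**Figure D5:**
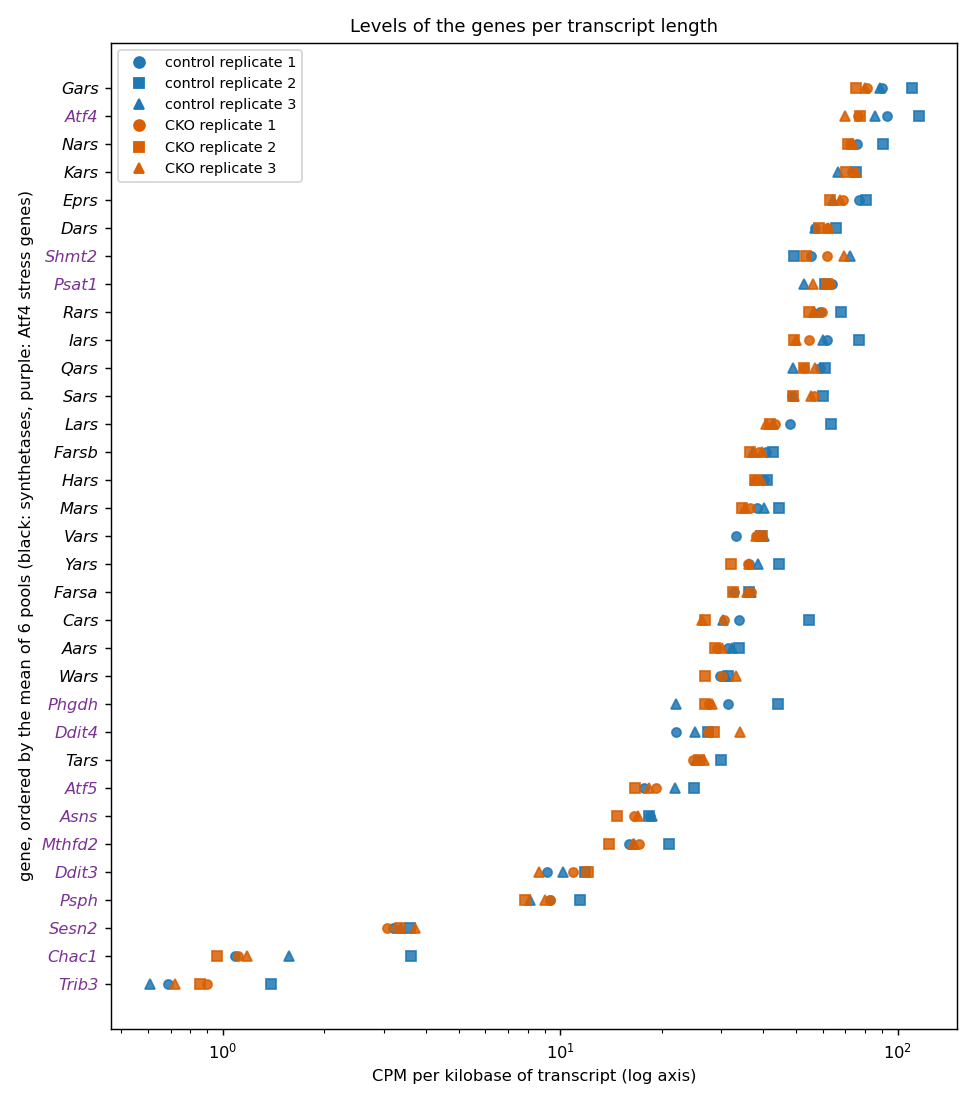
CPM per kilobase of transcript in each of the 6 pools on a log axis, with genes ordered by their mean (synthetases in black, Atf4 stress genes in purple). The synthetases lie between 26.4 and 87.7 on average, whereas Psph, Sesn2, Chac1 and Trib3 lie below 10.

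Other genes of the same pathways were read from lists of 78 genes, of which 74 were tested. Their median log2 fold change was -0.058, 46 were below 0 and 28 above, and 2 (2.7%) were lower and 0 higher at an unadjusted p under 0.05, a share near the 2.24% of all genes that were lower. These 2 were Mtor and Tsc2, both of the mTORC1 list. Groups were separated in 5 of the 74 (6.76%, against 4.69% of all genes), all lower, Mtor, Tsc2, Nars2 and, named after their values were seen, Herpud1 and Rptor.

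Mtor, the kinase of the growth complexes mTORC1 and mTORC2, had 209.7, 293 and 189 CPM in control and 162, 140.1 and 142 CPM in CKO (log2 fold change -0.64, standard error 0.17, unadjusted p = 0.00766, adjusted p = 0.844 in edgeR). Tsc2, an inhibitor of mTORC1, had 302, 506 and 249 CPM in control and 190.2, 177 and 142 CPM in CKO (log2 fold change -1.05, standard error 0.27, unadjusted p = 0.00697, adjusted p = 0.837 in edgeR). The kinase and its inhibitor were thus both lower, with control replicate 2 highest for each. Tsc2 was called by DESeq2 (adjusted p = 0.0158). The study listed Tsc2 as lower in its Gata3 mutant and in published N-Myc and Prox1 lens mutants. Its Gata3 result came from these same libraries, so the DESeq2 call is not independent of it. Without control replicate 2 the values were -0.42 for Mtor and -0.69 for Tsc2. Tsc2 shares 693 exon bases with Pkd1 on the opposite strand, and the strand option of the counting is not given, so its count may be uncertain.

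The 17 mitochondrial synthetases, encoded by separate genes, were spread around 0 with a median of -0.036, from -0.23 for Nars2 to 0.34 for Lars2. Control replicate 2 was the highest pool in 6 of these 17, against 16 of the 20 cytosolic genes. The 3 scaffold genes of the multisynthetase complex ran from -0.12 for Aimp2 to 0.01 for Eef1e1. Of the 14 genes for eIF2, its kinases, its phosphatase subunits and its exchange factor, 11 were below 0, from -0.33 for Ppp1r15a to 0.12 for Eif2ak3, with overlapping groups in every one.

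The 9 amino acid transporters had a median of -0.13, from -0.96 for Slc7a11, the cystine importer, to 0.02 for Slc1a4, a neutral amino acid carrier. Slc7a11 had 87.5, 178 and 59.7 CPM in control and 70.3, 54.7 and 41.8 CPM in CKO, with overlapping groups and control replicate 2 far above the rest (unadjusted p = 0.0544). The 6 Atf4 partners and related factors tested ran from -0.25 for Nupr1 to 0.03 for Atf2. The 16 further Atf4 targets tested were evenly divided, with 8 below and 8 above 0, from -0.28 for Aldh18a1 to 0.50 for Cbs.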

How the data were processed

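The libraries were made from E14.5 lenses, 6 pools in all. The authors aligned paired-end reads to mm10 with TopHat2 2.0.13, counted fragments per RefSeq gene with HTSeq 0.6.1, and deposited raw counts without normalization for genes above a mean FPKM cutoff. The strand option of the counting is not given in the sources used here. CKO titles number the pools 1, 2 and 3 and their descriptions 2, 3 and 4, and title numbers are used. The test kept genes that had 10 or more counts in 3 or more libraries, scaled them by TMM, and used the robust quasi-likelihood fit of edgeR 4.0.16 in R 4.3.3, with group as the only term and Benjamini-Hochberg adjustment over all 12879 genes. The script was tested on simulated data. Replicates differed beyond sampling noise in every pair. Depth limits only the lowest genes, and pool-to-pool spread sets the precision of the others.

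All 33 genes are named, and other pathway genes where the unadjusted p was under 0.05 or the fold change was the lowest or highest of a list. Members and lists were chosen with earlier results of these data known, and no list was tested as a set. Markers of 11 cell types or states (crystallins, lens fibre, lens epithelium, proliferation, retina, pigment cells, blood, vessels, macrophages, mesenchyme, surface ectoderm) were summed as CPM. Atf3, Gdf15, Fgf21 and Deptor were not analysed here. Alternatives were DESeq2 1.42.0, limma 3.58.1 voom, DESeq2 size factors, crystallins left out of library sizes, other filters, the replicate number as a block, and each library left out. Positions and transcript lengths came from GENCODE M21 (GRCm38, the assembly of mm10) and promoter sequences from RefSeq, of which 1 motif match is not reported here. Figures were drawn with matplotlib 3.10.9.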

Additional observations from a re-analysis of the deposited data

How the results depend on the processing

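Under DESeq2, limma voom, DESeq2 size factors, crystallins left out of library sizes, no filter, a filter of 50 counts and the replicate block, 0 of the 33 genes were called, and with each library left out also 0. Chac1 and Trib3 had too few counts to be tested under the filter of 50. Of the 33, 18 kept their sign in every one of these fits in which they were tested. The number of all genes called was 85 in DESeq2 and 0 to 1 with a library left out. Tsc2 was called in DESeq2 (log2 fold change -1.05, adjusted p = 0.0158). With a library left out, 148 to 769 of all genes were lower and 121 to 489 higher at an unadjusted p under 0.05, and 0 to 8 of the 33 were lower and 0 to 1 higher. The median of the Atf4 stress genes ranged from -0.22 to 0.01, with the reversal when control replicate 2 was left out. Signs reversed with 1 library left out for 15 genes, whose log2 fold changes ranged from -0.013 to 0.11 for Dars, -0.022 to 0.075 for Kars, -0.15 to 0.015 for Qars, -0.021 to 0.14 for Sars, -0.12 to 0.016 for Tars, -0.027 to 0.091 for Vars, -0.10 to 0.048 for Wars and -0.045 to 0.039 for Farsa. They ranged from -0.086 to 0.15 for Ddit3, -0.33 to 0.36 for Trib3, -0.46 to 0.053 for Phgdh, -0.046 to 0.11 for Psat1, -0.25 to 0.012 for Psph, -0.038 to 0.23 for Shmt2 and -0.078 to 0.059 for Sesn2. Sesn2 was also reversed in limma voom (0.0022). A fit without the 2 mesenchyme-rich pools, chosen after seeing the data, gave 116 lower and 57 higher genes, 0 of the 33 lower, and reversed values of 0.0067 for Qars, -0.052 for Vars, 0.038 for Wars, 0.00033 for Farsa and -0.16 for Ddit3. Same-numbered pools had correlations of deviations of -0.51, 0.090 and 0.48. The highest correlation, 0.58, was between control replicate 1 and CKO replicate 2, the 2 mesenchyme-rich pools. With 3 pools in each group these correlations cannot show whether the numbers pair the pools. With the replicate number as a block, 3 of the 33 were lower and 1 higher at an unadjusted p under 0.05. In that fit 339 of all genes were lower and 177 higher by this rule. The causes of these shifts were not tested.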
